A study of Homo sapiens with 2 samples.

Results

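Mitochondrial ribosomal protein genes are the nuclear genes whose symbols are MRPL or MRPS followed by a number. Members were taken from the array's probe annotation by that pattern, leaving out pseudogenes, antisense genes and probe sets that share a second gene symbol, such as the probe set of MRPL53 and CCDC142. This gave 75 genes, with 140 probe sets, of 19775 genes that had a probe set of their own. All 75 had a signal above the floor of 13.7 on both arrays, the median of all signals and the level below which values were not ordered.

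The genes were read in Eol1 cells, an established human line from an eosinophilic leukaemia that depends on the fusion kinase FIP1L1-PDGFRA. A culture incubated for 4 h with 100 nM Glivec, the trade name of imatinib, which blocks the PDGF receptor, KIT and ABL kinases, was set against an untreated culture, and both were grown in serum-containing RPMI medium and washed with PBS before total RNA was extracted. Each group is 1 culture of 1 line on 1 Affymetrix array, so differences have no replicate check and come without a test or a p-value. The comparison asked how gene expression in these cells differed after short exposure to the drug.

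The mitochondrial ribosome translates the few messages of the mitochondrial genome, all of them for core subunits of the respiratory chain and ATP synthase. Its RNAs come from mitochondrial DNA, whereas every one of its proteins is encoded in the nucleus, made in the cytosol and imported. Many of the proteins descend from bacterial ribosomal proteins, and the rest were gained in mitochondria. In blood cells as elsewhere, growth signals and MYC are known to drive genes of ribosome production, both cytosolic and mitochondrial.

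The line's identity was checked against marker lists. Of 7 eosinophil markers with a probe set, 2 were above the floor on both arrays, the granule protein genes PRG2 and RNASE2, and IL5RA, SIGLEC8 and GATA1 were above it on neither. All 6 myeloid markers with a probe set were above the floor on both arrays, while 0 of 4 T cell, 1 of 3 B cell (CD79A), 0 of 4 fibroblast, 0 of 1 erythroid and 1 of 4 epithelial markers were (KRT18, with signals of 20.8 and 14.5). Summed signals of the T cell list were 30.8 with Glivec and 32.8 without, and those of the fibroblast list 36.7 and 22.7. The 18 hybridisation spike-in probe sets had a median log2 ratio of 0.74, so they were 1.67-fold higher on the Glivec array. Every ratio below thus depends on the scaling of the deposited values, unless another scaling is named. With scaling to the spike-ins the median over all genes was -0.59 in place of 0.10.

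Mitochondrial ribosomal protein genes were lower as a group on the Glivec array, by a small amount. Their median log2 ratio, Glivec over untreated, was -0.19, a 1.14-fold lower signal, with quartiles of -0.41 and -0.02. The median over all 12705 measured genes was 0.10. In all, 56 of the 75 (74.7%) had a negative ratio, against 41.0% of all measured genes, and 68 of 75 lay below the median of all genes. Summed over the 75 genes the signal was 51638 with Glivec and 59550 without, a log2 ratio of -0.21. From bulk RNA, fewer cells with a transcript and less transcript per cell cannot be told apart.

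Few members differed by much. At least 2-fold lower were 3 of 75 (4.0%), beside 2.63% of all measured genes, a share near the background. At least 1.5-fold lower were 10 of 75 (13.3%), beside 8.33% of all genes. At least 2-fold higher were 0 of 75, beside 3.13%, and at least 1.5-fold higher was 1 of 75 (1.33%), MRPL2, beside 13.5%. The remaining 64 members (85.3%) lay within 1.5-fold, and 22 of them within 0.1 log2 units of 0.

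**Figure D1:**
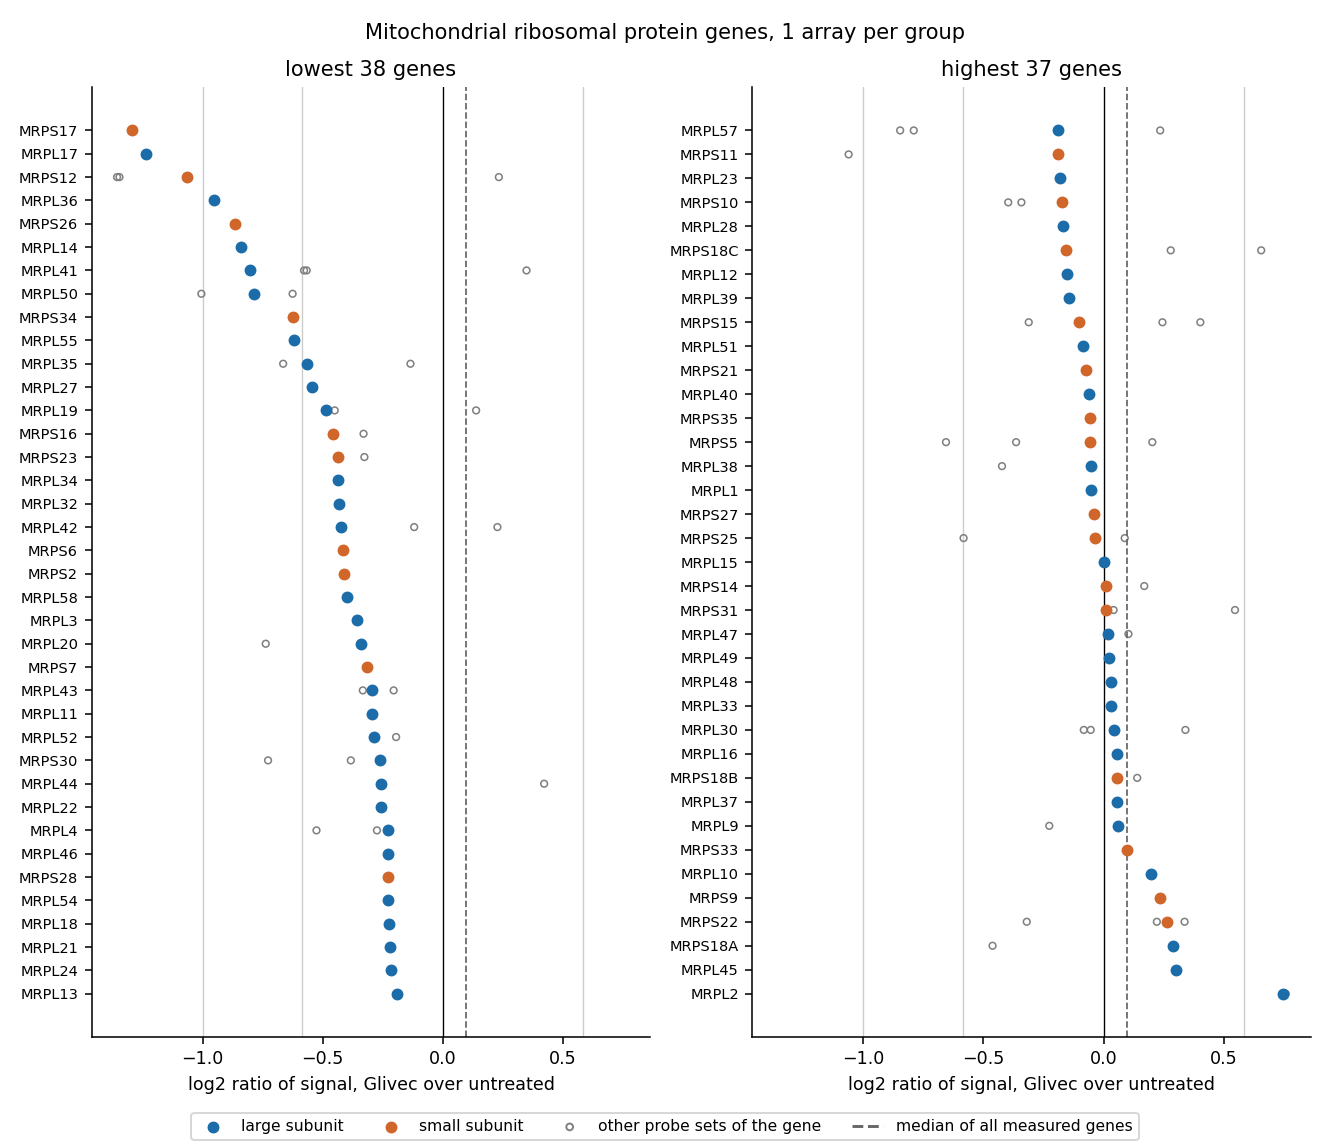
Log2 ratio of signal, Glivec over untreated, of each of the 75 genes, ordered from lowest to highest over both panels. Filled points are the probe set that represents the gene, coloured by ribosomal subunit, open points are its other probe sets above the floor, grey lines mark 2-fold lower and 1.5-fold either way, and the dashed line is the median of all measured genes, 0.10. The points run from -1.30 for MRPS17 to 0.75 for MRPL2, and 56 of the 75 lie left of 0.

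Genes with similar signals were set beside the members. Over the 6285 genes with a mean signal in the range spanned by the members, 118 to 2608, the median log2 ratio was 0.02 and 47.6% were negative. Of these genes 2.77% were at least 2-fold lower and 1.48% at least 2-fold higher, and 8.89% were at least 1.5-fold lower and 8.07% at least 1.5-fold higher. Among the 25 dimmest members the median was -0.29, beside 0.05 for the 3870 genes in the same signal range. It was -0.17 for the 25 in the middle, beside -0.003 for 1176 genes, and -0.16 for the 25 with the highest signals, beside -0.001 for 1149 genes. Across the 75 genes, read on the same pair of arrays, log2 mean signal and log2 ratio had r = 0.15 and rho = 0.17, a weak relation given as a description.

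**Figure D2:**
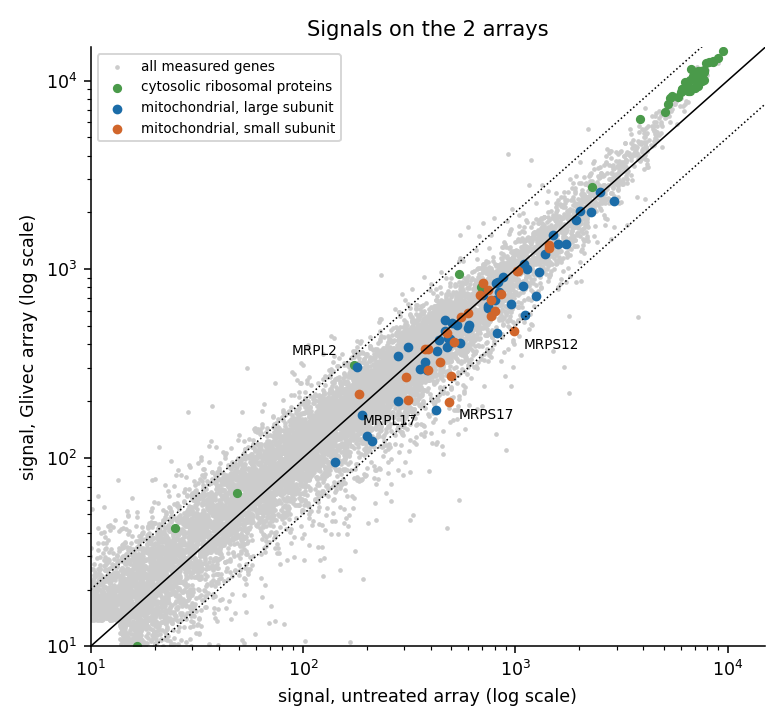
Signal on the Glivec array against signal on the untreated array, both on log axes, with 1 point per gene. The solid line marks equal signals and the dotted lines 2-fold differences; most mitochondrial ribosomal protein genes lie just below the solid line, 3 lie beyond the lower dotted line, and 51 of the 52 cytosolic ribosomal protein genes lie above the solid line, most of them at the top right.

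The genes for the large subunit, which joins amino acids, and those for the small subunit, which reads the message, were compared. The human large subunit also holds MRPS30 and MRPS18A in spite of their names, and they were counted there. The 50 large subunit genes had a median of -0.22, with 37 negative and 6 at least 1.5-fold lower. The 25 small subunit genes had a median of -0.16, with 19 negative and 4 at least 1.5-fold lower. Of all measured genes, 41.0% were negative and 8.33% at least 1.5-fold lower. With only _at probe sets the medians were -0.22 for the large and -0.048 for the small subunit. With only 1 array per group, a difference of this size between the subunits cannot be assessed.

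Proteins inherited from the bacterial ribosome form much of its conserved core. The 44 genes counted with a bacterial counterpart had a median of -0.22, with 34 negative. They held all 3 members at least 2-fold lower (6.82%, beside 2.63% of all measured genes). The 31 genes counted as without one had a median of -0.14, with 22 negative and 0 at least 2-fold lower. Counted among these 31 are MRPS18A and MRPS18B, paralogues of MRPS18C, which was counted with a counterpart. At 1.5-fold the shares were alike, 6 of 44 (13.6%) and 4 of 31 (12.9%), beside 8.33% of all genes. As 2-fold calls were few and near the background over all members, nothing is read from their split.

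Among small subunit genes, MRPS17, a homologue of bacterial S17, had the lowest ratio of all members. Its signal was 198 with Glivec and 486 without, 2.45-fold lower, by its only probe set. MRPS12 encodes the homologue of bacterial S12, the protein beside the decoding centre. Its signal was 469 with Glivec and 981 without, 2.09-fold lower. Other MRPS12 probe sets read 54.2 against 138.7 and 48.0 against 122, and the last, close to the floor, read 19.9 against 16.9. So 3 of 4 MRPS12 probe sets were lower by more than 2-fold and the dimmest was not.

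MRPS26 and MRPS34 encode small subunit proteins without a bacterial counterpart. MRPS26 had signals of 272 with Glivec and 496 without, 1.82-fold lower, and MRPS34 had 202 and 311, 1.54-fold lower, each by 1 probe set above the floor. MRPS16, a homologue of bacterial S16, had 322 and 443, with log2 ratios of -0.46 and -0.33 by its 2 probe sets. All 3 were thus dimmer on the Glivec array, and MRPS16 did not reach 1.5-fold.

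Among large subunit genes, MRPL17, a homologue of bacterial L17, was lowest. Its signal was 179.9 with Glivec and 423 without, 2.35-fold lower, by 1 probe set. MRPL36, a homologue of bacterial L36, had 572 and 1105, 1.93-fold lower. MRPL14, which lies at the face that meets the small subunit, had 457 and 817, 1.79-fold lower. These 3 genes rest on 1 probe set each, so no spread between probe sets is at hand for them.

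MRPL41 and MRPL50 are large subunit proteins gained in mitochondria. MRPL41 had signals of 718 with Glivec and 1254 without, 1.75-fold lower, with further probe sets at -0.58 and, with the Glivec array at the floor, -0.57, and a dim one at 0.35 (28.8 against 22.6). MRPL50 had 122 and 210.3, 1.72-fold lower, and all 3 of its probe sets were lower, from -1.01 to -0.63. It was the only member at least 1.5-fold lower that had several probe sets above the floor with all of them lower. MRPL55, the counterpart of bacterial L31, had 129.9 and 199.7, 1.54-fold lower by 1 probe set.

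Several large subunit genes were lower without reaching 1.5-fold. MRPL27, whose bacterial homologue reaches into the peptidyl transferase centre, had 650.2 with Glivec and 949 without. MRPL35 had 95.4 and 141, with all 3 probe sets negative (-0.66 to -0.13). MRPL19 had 200.4 and 281, and its other probe sets were at -0.45 and 0.14. In these 3 genes the representing probe set was 1.40-fold to 1.48-fold dimmer with Glivec.

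MRPL2 stood at the other end. It encodes the homologue of bacterial L2, a conserved protein near the peptidyl transferase centre. Its signal was 303 with Glivec and 180.4 without, 1.68-fold higher, and its other probe set gave nearly the same log2 ratio, 0.76 beside 0.75. It was at the 92.2 percentile of all measured genes, and no other member reached 1.5-fold higher. With spike-in scaling MRPL2 was at 0.01 and the other 74 members were negative. So the size of the MRPL2 ratio, and the direction of every other higher member, depend on the scaling of the deposited values.

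The other higher members were small in ratio. MRPL45, which holds the ribosome at the inner membrane, had 387 with Glivec and 314 without, and MRPS9 had 217 and 184. MRPL10, the base of the stalk that recruits translation factors, had 536 and 468. MRPL12, the stalk protein bound to it, had 432 and 480.3, so the stalk partners differed in sign by small amounts. MRPS22 was at 0.26, with its 4 probe sets between -0.32 and 0.34, MRPS33 at 0.10 and MRPL9 at 0.06, with another MRPL9 probe set at -0.23. MRPL9 was positive and yet below the median of all measured genes, 0.10.

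The 3 paralogues MRPS18A, MRPS18B and MRPS18C occupy different places in the ribosome, MRPS18A in the large subunit and the others in the small. MRPS18C had 1293 with Glivec and 1440.4 without, a log2 ratio of -0.16, while its dimmer probe sets were at 0.66 and, with the untreated array at the floor, 0.28. MRPS18B was at 0.06 and 0.14 by its 2 probe sets. MRPS18A had 344 and 282 by 1 probe set and 200.2 and 276 by another, log2 ratios of 0.29 and -0.46, so it has no settled direction. MRPS30 was lower by all 3 probe sets, from -0.73 to -0.26.

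The 4 members with the highest signals were within 1.5-fold by the probe set that represents them. MRPL3, a homologue of bacterial L3, read 2287 with Glivec and 2929.7 without, a log2 ratio of -0.36, which was -0.48 with quantile normalization and -0.50 with loess. MRPL33 read 2552 and 2494, and MRPL15 read 2023 and 2022. MRPL57 read 2001 and 2279.8 by its brightest probe set, at -0.19, but -0.85, -0.79 and 0.24 by others. Signals of different probe sets are not levels of transcript, so no order between genes is drawn from them.

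Differences among the probe sets that read a gene were the only available measure of error, which says nothing of variation from culture to culture. Pooled over the 31 members with several probe sets above the floor, the SD of the log2 ratio was 0.355. It was 0.36 over the 6380 such genes of the whole series. In 12 of the 31 members all probe sets were lower, in 5 all were higher and in 14 they differed in sign. These counts of sign were not made over all genes. Of the 10 members at least 1.5-fold lower, 7 rest on 1 probe set above the floor. Over all 132 probe sets of members above the floor, 91 (68.9%) were negative, with a median of -0.21. Counted by gene, 41.0% of all measured genes were negative.

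Members were also listed by the type of the probe set that represents them. The 44 represented by a probe set whose suffix _s_at marks a match to several transcripts had a median of -0.23. At least 1.5-fold lower were 9 of them (20.5%). The 29 represented by a gene-specific _at probe set had a median of -0.06, with 1 (3.45%) at least 1.5-fold lower, MRPS34. Over all measured genes, of any type, the share was 8.33%. The same split over all genes was not made, so the difference is not read as particular to members. Where only _at probe sets were used for every gene, 41 members had a value, with a median of -0.22, 27 negative and 4 (9.76%) at least 1.5-fold lower, beside 9.01% of all genes, a share near the background. The part of cross-matching transcripts, such as pseudogenes, in the values was not tested.

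Promoters of 67 members were in the RefSeq-derived table (assembly GRCh38.p14), each spanning 250 bases before to 50 bases after the first listed start site. They were searched on both strands for CCGGAAG, a motif of ETS factors such as GABP, for a core of the NRF1 motif (GCGCA and GCGC with any base between them) and for CACGTG, the E-box bound by MYC with MAX. Shown, in the direction of transcription with matches in capitals, are 4 promoters of genes at least 1.5-fold lower, chosen as examples of each motif; MRPS26 (ETS) and MRPL14 (NRF1), also lower, hold a match too, and MRPS17, MRPL41, MRPL50 and MRPL55 hold none. No match was searched beyond these windows, and a match is a run of letters and not a shown binding site.
MRPS12, chr19:38930694-38930993, plus strand: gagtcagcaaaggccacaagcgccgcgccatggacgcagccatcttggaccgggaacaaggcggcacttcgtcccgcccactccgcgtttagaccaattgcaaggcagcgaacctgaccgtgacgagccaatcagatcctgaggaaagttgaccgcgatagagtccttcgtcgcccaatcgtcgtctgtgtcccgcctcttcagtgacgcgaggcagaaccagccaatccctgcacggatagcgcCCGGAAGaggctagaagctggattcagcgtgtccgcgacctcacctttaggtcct
MRPL17, chr11:6683291-6683590, minus strand: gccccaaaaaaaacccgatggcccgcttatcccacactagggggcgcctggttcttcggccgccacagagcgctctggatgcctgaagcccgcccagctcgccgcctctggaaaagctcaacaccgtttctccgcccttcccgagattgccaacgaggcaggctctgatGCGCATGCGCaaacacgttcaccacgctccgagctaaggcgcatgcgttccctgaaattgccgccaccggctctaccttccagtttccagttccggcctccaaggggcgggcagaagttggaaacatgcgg
MRPL36, chr5:1799788-1800087, minus strand: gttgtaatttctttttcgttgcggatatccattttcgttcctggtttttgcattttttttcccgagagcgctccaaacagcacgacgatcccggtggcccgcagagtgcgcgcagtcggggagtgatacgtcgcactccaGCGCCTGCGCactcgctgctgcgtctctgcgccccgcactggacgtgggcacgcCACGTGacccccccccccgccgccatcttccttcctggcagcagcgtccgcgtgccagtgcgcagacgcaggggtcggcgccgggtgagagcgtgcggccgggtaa
MRPS34, chr16:1773085-1773384, minus strand: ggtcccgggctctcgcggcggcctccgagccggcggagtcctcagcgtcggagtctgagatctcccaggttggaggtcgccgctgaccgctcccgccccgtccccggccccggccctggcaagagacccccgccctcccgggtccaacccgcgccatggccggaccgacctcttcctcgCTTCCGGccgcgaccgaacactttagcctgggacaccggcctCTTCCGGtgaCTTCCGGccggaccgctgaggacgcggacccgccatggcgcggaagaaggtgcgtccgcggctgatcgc

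In MRPS12 the ETS letters begin 5 bases before the start site and run across it. MRPS34 holds 3 of them, beginning 71, 29 and 19 bases before its start, all on the opposite strand. MRPL17 holds the NRF1 letters 81 bases before its start, and MRPL36 holds them 110 bases before, with an E-box at 56 bases before. MRPS12 and MRPS34 thus share the ETS letters, and MRPL17 and MRPL36 the NRF1 letters.

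The ETS letters were in 28 of 67 member promoters (41.8%), beside 18.9% of 10236 promoters of measured genes and 10.7% of all 27305 promoters. NRF1 letters were in 8 of 67 (11.9%), beside 11.4% of measured genes, and the E-box in 6 of 67 (8.96%), beside 10.2%. The median log2 ratio was -0.16 in the 28 members with the ETS letters and -0.23 in the 39 without. It was -0.07 in the 8 with NRF1 letters and -0.22 in the 59 without, and -0.07 in the 6 with an E-box and -0.22 in the 61 without. Among the 10 members at least 1.5-fold lower, 3 (30.0%) held NRF1 letters, against 5 of the other 57 (8.77%), and 3 (30.0%) held the ETS letters, against 25 of 57 (43.9%). So the NRF1 letters went with a median nearer 0 and yet were in a larger share of the lowest members, over few genes.

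Several members start head to head with another gene, on the opposite strand and transcribed away from it. With start sites at most 1000 bases apart, 16 such pairs had both genes measured. In 1 of them both were members, MRPS11 at -0.19 and MRPL46 at -0.23, with start sites 320 bases apart. In the other 15 pairs the partner had a positive ratio in 13, beside 59.0% positive among all measured genes, with a median of 0.46 for partners and -0.16 for members. The member was below its partner in 14 of 15, the exception being MRPL40 at -0.06 with HIRA, a histone chaperone gene, at -0.41. Of all members, 68 of 75 lay below the median of all genes, so nothing particular to these pairs is read from the count.

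Pairs that hold members named above were read in more detail. MRPS12 and SARS2, the gene of the mitochondrial seryl-tRNA synthetase, start 181 bases apart, and SARS2 read 223 with Glivec and 151 without while MRPS12 was 2.09-fold lower. MRPL50 was 1.72-fold lower and ZNF189, a zinc finger gene 233 bases away, read 152 and 103. MRPL27 was 1.46-fold lower and EME1, an endonuclease subunit gene 45 bases away, read 270.5 and 171, though another EME1 probe set read 67.1 and 68.0. In these 3 pairs, as deposited, the shared stretch between the starts had a lower transcript on one side and a higher one on the other. With spike-in scaling the partners were negative too, SARS2 at -0.18, ZNF189 at -0.18 and EME1 at -0.08. SARS2 and ZNF189 each rest on 1 probe set. PIERCE1, beside MRPS2, was at 1.30, with signals of 35.7 and 14.5 that lie near the floor.

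**Figure D3:**
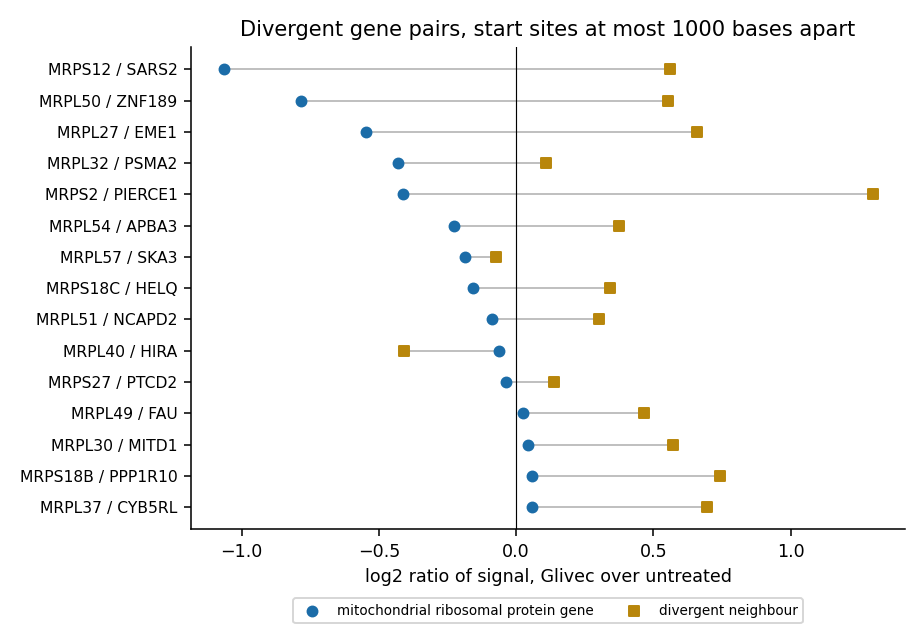
Log2 ratio of signal, Glivec over untreated, of 15 members (circles) and of the gene that starts head to head with each (squares), joined by a line. Members run from -1.07 for MRPS12 to 0.06 for MRPL37, and 14 of the 15 lie left of their partner.

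With a gene's probe sets averaged, the member was below its partner in 12 of 15 pairs, and with only _at probe sets 3 pairs had values and 2 had the member below. With spike-in scaling 2 of 15 partners had a positive ratio and the member was still below in 14 of 15, since that scaling shifts both genes alike.

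The cytosolic ribosome was set beside the mitochondrial one. Its 52 measured protein genes had a median log2 ratio of 0.55, with 51 (98.1%) positive, beside 59.0% of all measured genes. At least 1.5-fold higher were 19 (36.5%), beside 13.5% of all genes, and at least 1.5-fold lower were 0, beside 8.33%. The ribosomes of the cytosol and of mitochondria thus had medians of opposite sign. The cytosolic median lay close to 0 with quantile normalization, at 0.05, and was -0.19 with spike-in scaling, while the mitochondrial median was -0.18 and -0.93. The median signal was 8267 over the cytosolic genes and 593 over the members, though a few cytosolic genes, such as RPL31 and RPL38, had signals within the members' range and RPL7, the negative one, was near the floor. The distance between the medians of the sets was 0.74 log2 units as deposited and 0.23 after quantile normalization.

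**Figure D4:**
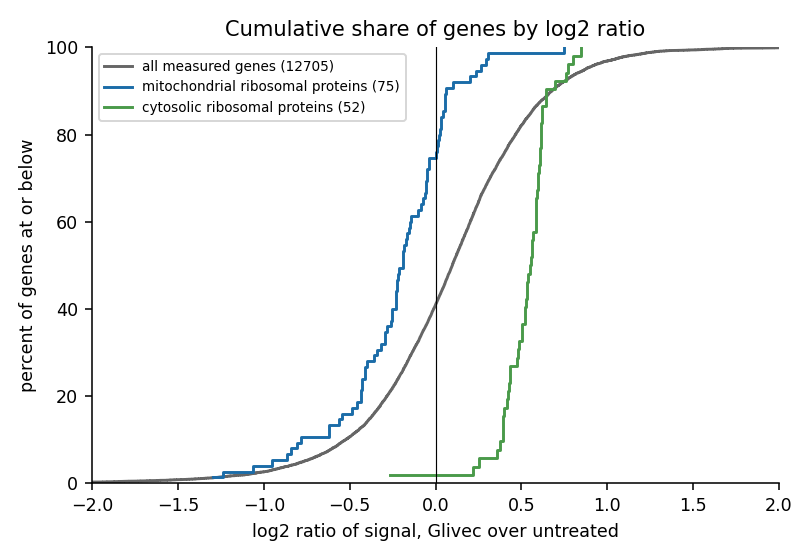
Percent of genes at or below each log2 ratio of signal, Glivec over untreated, for all measured genes, the 75 mitochondrial and the 52 cytosolic ribosomal protein genes. The mitochondrial curve lies left of that of all genes over most of its length, crossing 0 at 74.7%, and the cytosolic curve lies to the right.

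Proteins of the mitochondrial ribosome that carry other names were few. All 4 measured were negative, with a median of -0.25, but with the mean over probe sets the median was -0.08 with 3 of 4 negative, and with only _at probe sets -0.03 with 2 of 3. GADD45GIP1, a large subunit protein, read 424 with Glivec and 643 without, 1.52-fold lower, with another probe set at 0.34. CHCHD1 was at -0.37, DAP3 at -0.13 and PTCD3 at -0.03, the last 3 all of the small subunit, and other DAP3 and PTCD3 probe sets reached 0.24 and 0.19.

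Factors that assemble the mitochondrial ribosome varied more. Of 28 measured, 16 were negative, with a median of -0.20. At least 1.5-fold lower were 5 (17.9%), beside 8.33% of all genes, and at least 1.5-fold higher were 4 (14.3%), beside 13.5%. With only _at probe sets the median was -0.01 over 23 genes, 1 of them at least 1.5-fold lower. FASTKD2, an RNA-binding assembly protein, read 238 with Glivec and 441 without, with another probe set at 0.26, and MTERF3 read 545 and 938. At the other end METTL15, a methyltransferase of the small subunit RNA, read 91.1 and 52.7, and MRM1, which methylates the large subunit RNA, read 34.3 and 19.9. Mitochondrial translation factors lay closer to 0, with a median of -0.12. It was 0.07 with 4 of 9 negative by only _at probe sets and -0.04 with the floor at the 75th percentile. Of 16 measured, 10 (62.5%) were negative, beside 41.0% of all genes. As deposited 0 passed 1.5-fold, beside 8.33% of all genes lower and 13.5% higher. With median centring or the mean over probe sets 1 was at least 1.5-fold lower. TSFM, an elongation factor, was at -0.57 and SLIRP, an RNA-binding protein, at -0.44, while TUFM was at 0.17 and LRPPRC at 0.19, with another LRPPRC probe set at -1.10.

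Genes for transcription and RNA processing inside mitochondria were lower by more than the ribosomal proteins. Their median was -0.70 over 13 measured genes, 11 were negative, and 8 (61.5%) were at least 1.5-fold lower, beside 8.33% of all genes. TFAM, which packages mitochondrial DNA and starts its transcription, read 238 with Glivec and 498 without, 2.10-fold lower, and its 4 probe sets ran from -1.07 to -0.71. TRMT10C, a subunit of the mitochondrial RNase P, read 376 and 738, 1.96-fold lower, by 1 probe set above the floor. MTERF1 and MTERF2 were higher, at 0.56 and 0.42. With the mean over probe sets 6 of 13 were at least 1.5-fold lower and the median was -0.55.

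Among nuclear regulators known to act on mitochondrial genes, the median was -0.27 over 11 measured. At least 2-fold lower were 3 (27.3%), beside 2.63% of all genes, and at least 1.5-fold higher was 1 (9.09%), beside 13.5%. MYC read 557 with Glivec and 3781 without, 6.78-fold lower, by 1 probe set above the floor. The coactivator gene PPARGC1B read 21.0 and 66.4, close to the floor, with its other probe sets at -1.51 and -0.30, where an array at the floor makes the value a bound. GABPA, the ETS factor of the GABP complex, was at 0.15, and TFE3 at 0.64 with another probe set at -0.18. NRF1 was at -0.29, chosen for mention after its value was seen because its motif was searched. Its 5 probe sets above the floor ran from -0.29 to 0.11. Regulators and ribosomal protein genes were read on the same 2 arrays, and no relation between them was tested.

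**Figure D5:**
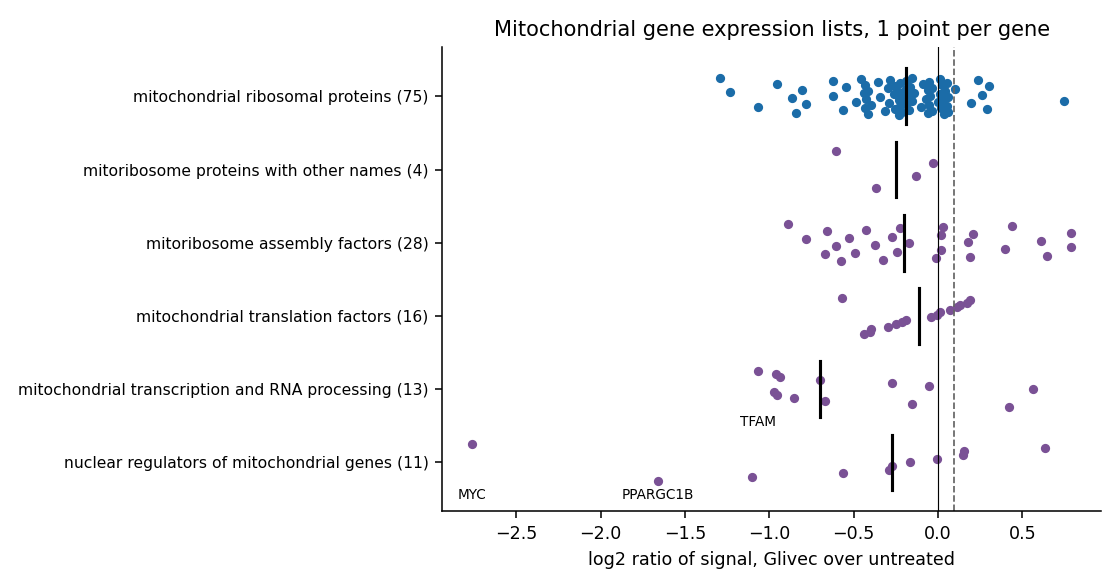
Log2 ratio of signal, Glivec over untreated, with 1 point per measured gene (vertical position within a row has no meaning) for the mitochondrial ribosomal proteins and 5 related lists. Black bars are list medians, from -0.70 for mitochondrial transcription and RNA processing to -0.12 for translation factors, and the dashed line is the median of all measured genes, 0.10.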

How the data were processed

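The deposited values are linear signal intensities from MAS5 (per the submitters' processing notes, version not given in the sources used here). On both arrays the mean signal without the lowest and highest 2% was 100.014, so the deposited intensities had been scaled alike. Each array held 54675 probe sets, 62 of them controls. Depth has no meaning for arrays, whose number, 2, limits the precision. The platform's annotation named 41097 probe sets with 1 symbol and 1801 with several. Entrez identifiers matched 41043 of the former to the RefSeq table of GRCh38.p14, which changed 0 symbols.

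Signals below the median of non-control signals, 13.7, were raised to it before log2. The probe set with the highest mean signal stood for a gene, with _x_at probe sets used only where no other was present, and counted as measured with an array above the floor. Counts used thresholds of 2-fold and 1.5-fold. Members, lists and thresholds were chosen with earlier results of these data known. Cytosolic ribosomal protein genes were taken by symbol, without paralogues ending in L and without Y-linked genes. Named members were the 14 lowest and 8 highest ratios, the 4 with the highest signal, those with probe sets of opposite sign at least 1 log2 unit apart, and MRPS18A, MRPS18B, MRPS18C, MRPS30 and MRPL12; each list added its 2 lowest and 2 highest. A few further genes, such as NRF1, MRPL37, MRPL40, MRPL46, MRPS2, MRPS11 and the head-to-head partners, were named after their values were seen.

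The alternatives were median centring, quantile normalization, removal of a loess trend (span 0.3), spike-in scaling, a floor at the 40th, the 60th or the 75th percentile, a pseudocount of 0.646 without a floor, the mean over probe sets, and only _at probe sets. The calculation was tested on simulated signals. Python 3.11.15, numpy 2.4.6, pandas 2.3.3, scipy 1.17.1, statsmodels 0.14.6 and matplotlib 3.10.9 were used.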

Additional observations from a re-analysis of the deposited data

How the results depend on the processing

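No paired analysis was possible because there is 1 array for each group, so that no replicate could be left out either. The lists and the head-to-head pairs were put through the alternatives after the data were seen. Medians, shares and counts count as moved here past 1.5 times or with a change of sign, and single genes past 0.355 log2 units, the SD between probe sets; these are yardsticks and not errors between cultures. The members' median was between -0.27 and -0.18 under all alternatives but spike-in scaling, and lay 0.23 to 0.34 log2 units below that of all genes under each of the 10. With spike-in scaling it was -0.93, beside -0.59 for all genes, and 98.7% of members were negative, beside 90.0% of all genes; 27 were at least 2-fold lower, beside 19.3% of all genes, 69 (92.0%) at least 1.5-fold lower, beside 50.4%, and 0 at least 1.5-fold higher. The medians were then -0.96 for the large and -0.89 for the small subunit, -0.96 for genes with a bacterial counterpart and -0.88 for those without. This scaling subtracts nearly 1 constant from every gene, which by construction accounts for these shifts. Median centring, also a constant shift, made 90.7% of members negative, beside 48.0% of all genes. With it the median of genes without a bacterial counterpart was -0.22. With only _at probe sets, 0 of 41 members were at least 2-fold lower and 4 at least 1.5-fold lower, since 8 of the 10 lower genes had no such probe set with an array above the floor. The medians were then -0.048 for the small subunit and -0.091 for genes without a bacterial counterpart. Floors and the pseudocount moved no count of members, as all signals lay above them. Of the 10 members at least 1.5-fold lower, 9 stayed so with the mean over probe sets (MRPL41 was at -0.40) and all 10 with quantile normalization, loess, centring and spike-in scaling. With the mean over probe sets MRPS18A, MRPS18C and MRPL9 changed sign, to -0.09, 0.26 and -0.08, as did MRPL44 and MRPS15, to 0.08 and 0.06. With only _at probe sets MRPS18A was at -0.46, MRPS15 at 0.40 and MRPS5 at 0.20, and MRPL9 was at -0.02 with median centring. With the mean over probe sets the medians of assembly factors and nuclear regulators were -0.13 and -0.17, and with median centring that of translation factors was -0.19. All 30 named members and all 5 related lists moved with spike-in scaling.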
